A study of Mus musculus with 8 samples.

Results

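The genes described here are 7 linked to the uptake and efflux of cholesterol in the intestine: Npc1l1, Scarb1, Soat2, Abcg5, Abcg8, Abca1 and Pltp. They were grouped by this function, and each was found by its Ensembl identifier with its exon boundaries checked against the annotation. All 7 had a value among 13081 genes with a value in the series, and 6 were among the 10271 genes that passed the filter of a mean of at least 0.5 FPKM, Pltp being the exception. FPKM counts the fragments of a transcript scaled to its length and to all mapped fragments of the sample, so levels of different genes can be set side by side per length.

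RNA was sequenced from small-intestinal crypt organoids, which are epithelial cultures grown from isolated crypts in Matrigel and IntestiCult OGM medium. There were 4 samples from MG53 transgenic mice (MG53-TG) and 4 from wild type littermates (WT), and the comparison asks how overexpression of MG53, the protein encoded by Trim72, changed the transcriptome. The study describes the overexpression as global. The promoter that drives the transgene, the age of the mice and the number of animals behind the 8 samples are not given in the sources used here. No injury or drug was named for these samples. The study's text on the crypt organoid transcriptome names the organoids as MG53;Lgr5, with Lgr5 controls. A figure legend on organoid RNA sequencing instead names MG53-TG and WT mice, as do the labels. Since no source says that the replicates came from separate animals, the p-values measure only the spread between these samples.

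Dietary cholesterol is taken up at the brush border by NPC1L1, which is internalised together with the sterol. Inside the enterocyte it is esterified by SOAT2 (ACAT2) and packed with apolipoproteins into chylomicrons, or pumped back into the lumen by the heterodimer of the half-transporters ABCG5 and ABCG8. ABCA1 exports cholesterol across the basolateral membrane to lipid-poor apolipoprotein A-I, and several of these genes are known targets of the sterol-sensing liver X receptors (LXR).

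The promoter sequences of the pair Abcg5 and Abcg8 and of Npc1l1 are shown first. Abcg5 and Abcg8 lie head to head, and both were higher in MG53-TG samples. The start of Abcg5 and the facing start of Abcg8, which carries nearly all of its FPKM, are 110 bases apart, with 109 bases between them. They are given from RefSeq (GRCm38.p6), chr17:84683012-84683120, plus strand, the coding strand of Abcg8. Capitals mark matches to AGATAA, the core motif of GATA factors, on either strand.
Abcg5/Abcg8 interval: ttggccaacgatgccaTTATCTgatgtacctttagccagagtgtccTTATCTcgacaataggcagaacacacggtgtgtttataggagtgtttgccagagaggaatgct
The interval holds 2 matches to AGATAA on the strand opposite to that printed. A window of 300 bases around each of these facing starts, 250 before to 50 after, holds 3, and both windows contain the same matches. The window at another annotated start of Abcg8, 84676302, which lies within Abcg5, holds 0. Of 32851 such windows of mouse genes, 11.2% hold at least 1 match to AGATAA, 1.14% at least 2 and 0.107% at least 3.
For Npc1l1, the 250 bases before the RefSeq start are chr11:6230246-6230495, minus strand. Capitals mark matches to AGGTCA, the half-site of nuclear receptors such as LXR, and to CCAAT, both read here on the opposite strand.
Npc1l1 upstream: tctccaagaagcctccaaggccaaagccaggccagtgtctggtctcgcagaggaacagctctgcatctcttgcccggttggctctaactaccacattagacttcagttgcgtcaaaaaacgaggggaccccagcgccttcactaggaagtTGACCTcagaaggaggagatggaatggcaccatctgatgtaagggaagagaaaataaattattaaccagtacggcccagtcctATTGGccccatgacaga
A match to AGGTCA is in 16.3% of the windows and one to CCAAT in 37.4%. The RefSeq start lies 102 bases upstream of the first base of the deposited Npc1l1 start event. A direct repeat of AGGTCA with 4 bases between is the arrangement that LXR with its partner RXR binds. With these exact letters it is in 0.0152% of windows and in none of those of the 5 members with a window (Npc1l1, Abcg5, Abcg8, Abca1 and Pltp). Sites that differ from these letters were not searched. Exact matches are so rare that finding none cannot show that LXR sites are absent. CANNTG, the E-box letters, was found in 72.3% of windows and TATAAA in 13.6%, each searched on both strands. In the windows of Npc1l1, Abcg5, the facing start of Abcg8, Abca1 and Pltp, CANNTG had 2, 1, 3, 1 and 3 matches. TATAAA had 0, 1, 1, 1 and 1 matches there, and CCAAT 1, 1, 2, 0 and 1. These matches are letters in a window and were not tested for binding.

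The sequences of the exons whose inclusion varied are shown next, from the GENCODE M21 transcripts on GRCm38. Exon 12 of 13 of Scarb1 (transcript Scarb1-201) is chr5:125281105-125281233, minus strand, and carries 126 coding bases followed by the stop codon, which is in capitals. Transcripts with it encode SR-BI, whose C-terminal end binds the adaptor PDZK1, and transcripts that skip it encode SR-BII with another C-terminal tail.
Scarb1 exon 12: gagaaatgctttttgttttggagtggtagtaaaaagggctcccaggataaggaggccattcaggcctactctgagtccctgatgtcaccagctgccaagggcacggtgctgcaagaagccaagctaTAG
Exon 3 of 13 of Abcg8 (Abcg8-201) is chr17:84688532-84688688, plus strand, coding throughout. Its length of 157 bases is 1 more than a multiple of 3, so that transcripts without it differ in reading frame downstream of the exon.
Abcg8 exon 3: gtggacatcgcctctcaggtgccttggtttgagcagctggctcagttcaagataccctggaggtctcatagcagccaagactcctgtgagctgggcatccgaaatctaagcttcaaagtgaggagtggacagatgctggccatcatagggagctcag

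The targeted gene followed the labels. Trim72 was absent from the tables of all WT samples, and MG53-TG samples 1 to 4 held 16.4, 27.4, 31.9 and 36.5 FPKM. FPKM summed over transcription starts was 269837 to 273797 in WT and 269094 to 284330 in MG53-TG samples, and the sequencing depth is unknown. Of the genes that passed the filter, 44.7% differed between the groups at an adjusted p of at most 0.05 (limma, Benjamini-Hochberg over all genes), 15.5% higher and 29.2% lower in MG53-TG. The median log2 fold change over all of them was -0.17. With median-of-ratios scaling this median moved up by 0.16 and 2101 of 4206 calls were higher, against 34.6% of calls without it, and with quantile normalization 44.8% were higher.

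The apical sterol importer and both subunits of the apical exporter rose in MG53-TG organoids. Npc1l1, Abcg5 and Abcg8 were 5.13-, 6.31- and 5.25-fold higher by mean FPKM, and Scarb1 was 1.79-fold higher. In all, 4 of the 6 members tested were higher at the threshold and 0 were lower, against 15.5% higher and 29.2% lower among all genes tested. In 5 of the 6, every MG53-TG value was above every WT value, an arrangement found in 15.7% of all genes tested, while 29.1% had every MG53-TG value below. Abca1 was among the 5 by a small margin, 0.756 against 0.753 FPKM, with no entry in WT sample 3. Soat2 and Abca1 did not pass the threshold. In bulk RNA, more cells of a type and more RNA per cell cannot be told apart, and the enterocyte markers rose in the same samples, as given further on.

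**Figure D1:**
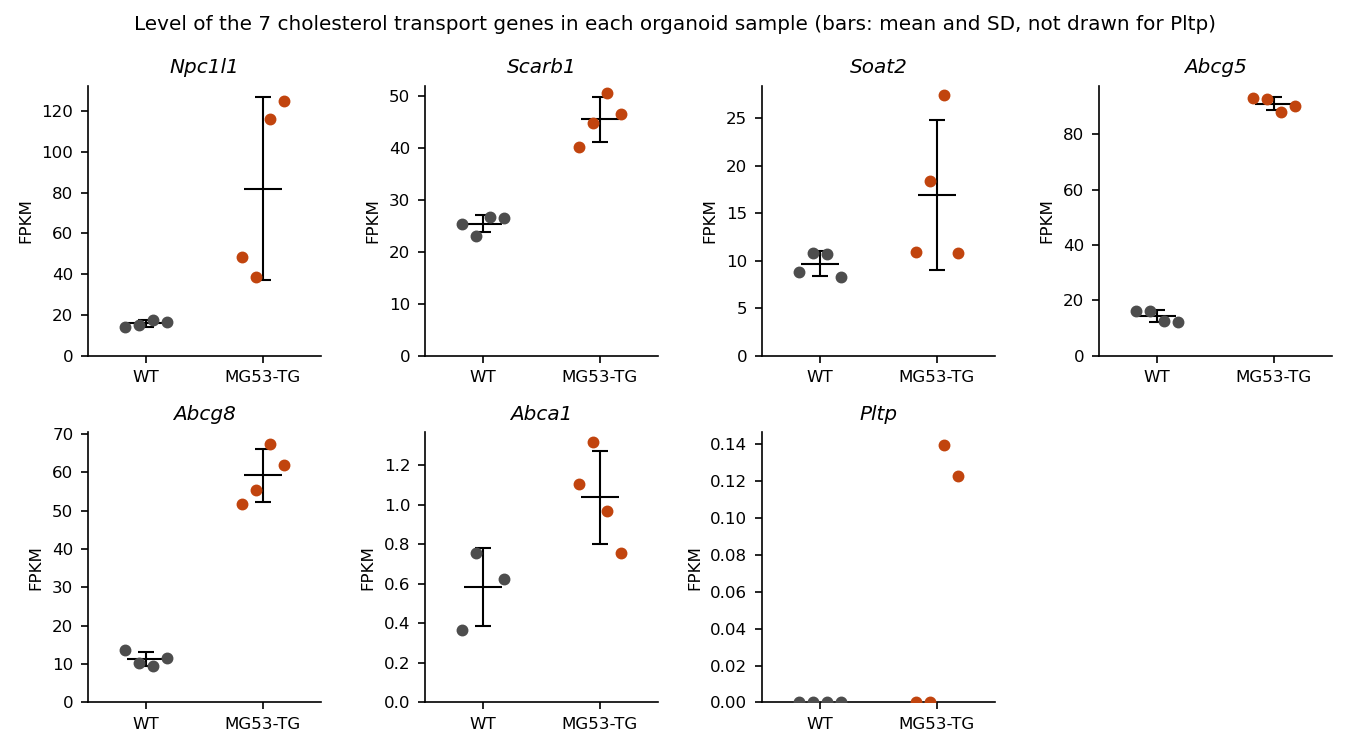
FPKM of each of the 7 genes (vertical axes, linear from 0) in the 4 WT and 4 MG53-TG samples, 1 point per sample, with mean and SD except for Pltp. The MG53-TG samples lie above the WT samples for Npc1l1, Scarb1, Abcg5, Abcg8 and, by a small margin, Abca1, and the groups overlap for Soat2.

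Npc1l1 (chromosome 11, 6211013 to 6230143, minus strand) encodes the brush-border importer that ezetimibe blocks. WT samples 1 to 4 held 14.2, 15.1, 17.8 and 16.7 FPKM of it, and MG53-TG samples 1 to 4 held 48.5, 38.7, 116 and 125 FPKM. The groups were apart, but the MG53-TG samples fell into a lower pair, samples 1 and 2, and a higher pair, samples 3 and 4. The mean rose from 16.0 ± 1.57 to 81.9 ± 44.6 FPKM (SD, n = 4 each), and the coefficient of variation from 9.85% to 54.4%. The log2 fold change was 2.12 ± 0.36 (SE) with an adjusted p of 0.00195 by limma, and 1.59% of genes tested had a higher one. The exact two-sided permutation test gave 0.0286, the smallest p that 4 against 4 samples allow. Npc1l1 had 1 start and 1 end event, with equal values, so that no alternative transcript was listed for it.

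Scarb1 (chromosome 5, 125277087 to 125341094, minus strand) encodes SR-BI, a receptor that exchanges cholesterol with high-density lipoproteins and is present on the enterocyte surface. The sum of its start events was 25.3, 23.1, 26.6 and 26.5 FPKM in WT and 40.2, 44.7, 50.5 and 46.4 FPKM in MG53-TG samples 1 to 4. The groups did not overlap and the spread within each was small. The mean rose from 25.4 ± 1.62 to 45.5 ± 4.29 FPKM (SD, n = 4 each). On the log2 scale the difference was 0.81 ± 0.10 (SE), with an adjusted p of 0.000305 (limma).

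This rise was unequal between the starts of Scarb1. The start of Scarb1-201, at the upstream end of the gene, was at 23.3, 19.9, 22.9 and 23.3 FPKM in WT and 34.5, 33.0, 36.8 and 34.5 FPKM in MG53-TG samples. An inner start, that of Scarb1-206 (125316476 to 125316632), was at 2.02, 3.18, 3.70 and 3.11 FPKM in WT and 5.66, 11.7, 13.6 and 11.9 FPKM in MG53-TG samples. It made up 7.98% to 13.9% of both starts in WT and 14.1% to 27.0% in MG53-TG samples, and the highest WT and lowest MG53-TG shares lie close together. The end events that match Scarb1 sum to less than its starts, and with ends alone the log2 fold change was 0.61.

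Exon 12 of Scarb1, printed above, was skipped in 5.50%, 10.3%, 8.34% and 2.99% of FPKM in WT and in 3.8%, 4.73%, 10.9% and 12.3% in MG53-TG samples 1 to 4. The groups overlapped over nearly their whole range. The form with the exon, which encodes the PDZK1-binding end, was at 20.3 ± 1.74 FPKM in WT and 31.9 ± 1.34 FPKM in MG53-TG samples (SD, n = 4 each).

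Abcg5 (chromosome 17, 84658234 to 84683011, minus strand) encodes one subunit of the exporter that returns sterols, plant sterols in particular, to the lumen. The sum of its start events was 16.4, 16.4, 12.8 and 12.1 FPKM in WT and 93.1, 92.7, 88.1 and 90.0 FPKM in MG53-TG samples 1 to 4. Abcg5 was the most even of the members within MG53-TG, with a coefficient of variation of 2.60%, where that of Npc1l1 was 54.4%. The mean rose from 14.4 ± 2.29 to 91.0 ± 2.37 FPKM (SD, n = 4 each). The log2 fold change of 2.59 ± 0.12 (SE) was the largest among the members, and 0.974% of genes tested had a higher one (limma adjusted p = 1.40e-06).

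Abcg8 (chromosome 17, 84676302 to 84700333, plus strand) encodes the other subunit, and neither reaches the cell surface without its partner. The sum of its end events was 13.8, 10.2, 9.42 and 11.7 FPKM in WT and 51.8, 55.5, 67.4 and 62.0 FPKM in MG53-TG samples 1 to 4. The groups were far apart. The mean rose from 11.3 ± 1.91 to 59.2 ± 6.94 FPKM (SD, n = 4 each), with a log2 fold change of 2.30 ± 0.14 (SE) and an adjusted p of 6.53e-06 (limma).

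The balance of the subunits moved little beside these changes. The ratio of Abcg5 to Abcg8 was 1.30 ± 0.242 in WT and 1.56 ± 0.220 in MG53-TG samples (SD, n = 4 each), with single values of 1.04 to 1.60 and 1.31 to 1.80 that overlap. The ratio of importer to exporter subunit, Npc1l1 to Abcg5, was 0.869, 0.924, 1.39 and 1.38 in WT and 0.521, 0.417, 1.32 and 1.38 in MG53-TG samples 1 to 4. In MG53-TG it was low in the samples with low Npc1l1, because Abcg5 was alike in all 4. These ratios were not tested.

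The usual form carried most of the rise of both subunits in every MG53-TG sample, and minor forms varied between samples. The usual first exon of Abcg5, of 284 bases, was at 14.1 ± 2.05 FPKM in WT (SD, n = 4), and MG53-TG samples 1 to 4 held 69.6, 82.8, 85.2 and 89.0 FPKM. A long form of it (84682011 to 84683011, 1001 bases) begins at the same base. It was at 0.572, 0.151 and 0.0528 FPKM in WT samples 1 to 3 and had no entry in WT sample 4. MG53-TG samples 1 to 4 held 21.5, 9.20, 2.59 and 0.448 FPKM of it. Its share of both forms was thus at most 3.54% in WT and ran from 0.501% to 23.6% in MG53-TG samples. A pair of inner exons of Abcg5 was skipped in at most 3.49% of FPKM in WT and 5.78% in MG53-TG samples.

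Abcg8 transcripts with exon 3, printed above, were at 9.40 to 11.7 FPKM in WT and 43.4 to 67.4 FPKM in MG53-TG samples. The exon was skipped in 15.0%, 0%, 0.185% and 0.271% of FPKM in WT and in 0.0648%, 21.8%, 0% and 20.3% in MG53-TG samples 1 to 4. The skipped form reached 12.1 FPKM in MG53-TG sample 2, 12.6 FPKM in MG53-TG sample 4 and 2.07 FPKM in WT sample 1, and was at 0.0336 FPKM or less in the others. Large shares thus occurred in single samples of both groups.

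**Figure D2:**
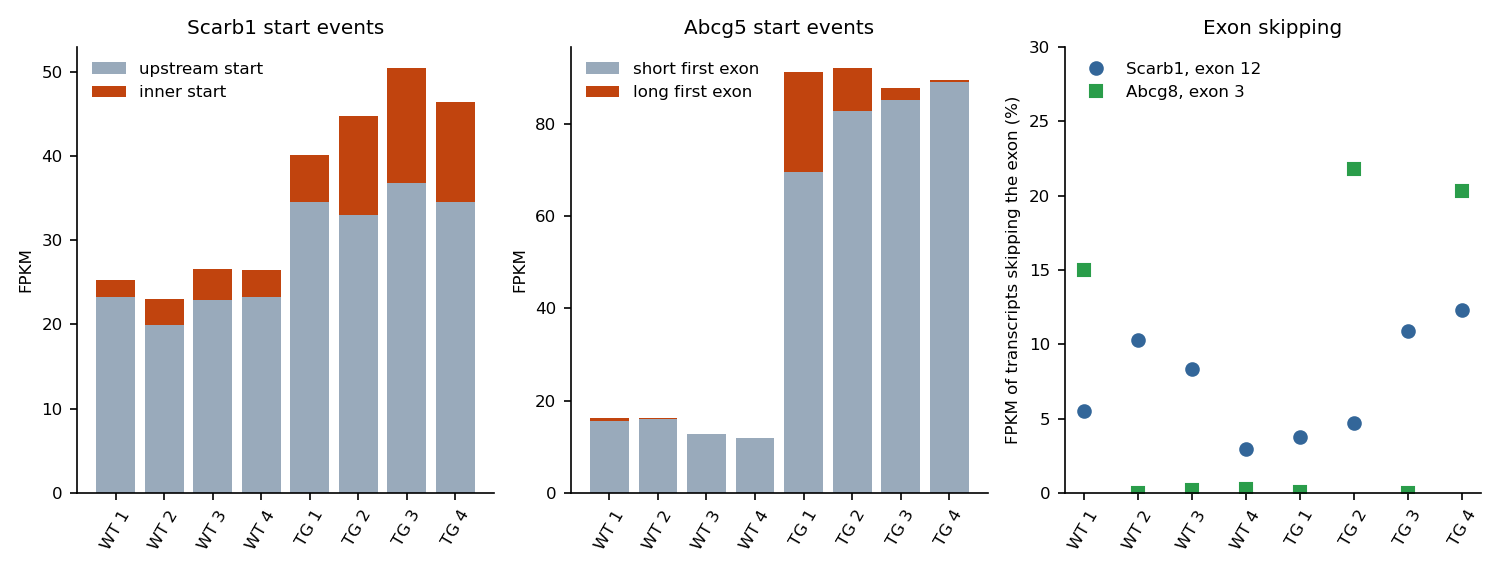
Left and middle, FPKM (linear axes) of the upstream and inner starts of Scarb1 and of the short and long first exon of Abcg5 in each sample, stacked. Right, the percentage of FPKM in transcripts that skip Scarb1 exon 12 or Abcg8 exon 3. TG stands for MG53-TG. The inner Scarb1 start takes 14.1% to 27.0% in MG53-TG samples, and Abcg8 skipping is high in WT 1, TG 2 and TG 4 only.

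Abca1 (chromosome 4, 53030787 to 53159895, minus strand), the basolateral exporter that forms nascent high-density lipoprotein, was near the lower limit of these data. Its end event was listed at 0.367, 0.753 and 0.625 FPKM in WT samples 1, 2 and 4, with no entry in WT sample 3. The MG53-TG samples 1 to 4 held 1.11, 1.32, 0.967 and 0.756 FPKM. All MG53-TG values were above the WT values, the closest pair being 0.753 and 0.756 FPKM. The log2 fold change was 0.37 ± 0.16 (SE) with a 95% interval of 0.01 to 0.72, and the adjusted p of 0.0900 (limma, WT sample 3 missing) did not pass the threshold. The exact permutation test over 35 relabellings gave a two-sided p of 0.0571. Abca1 did pass with median-of-ratios scaling (0.44, adjusted p = 0.0386, limma) and quantile normalization (0.46, adjusted p = 0.0323, limma). With a pseudocount of 0.1 in place of 1 its log2 fold change was 0.76, which did not pass (adjusted p = 0.0899, limma). The start event was listed in 2 samples of each group, at 0.525 and 0.482 FPKM in WT and 0.551 and 0.446 FPKM in MG53-TG, and with starts alone the log2 fold change was -0.0027.

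Soat2 (chromosome 15, 102150526 to 102163469, plus strand) encodes the enzyme that esterifies absorbed cholesterol for chylomicrons. Its end event was at 8.88, 10.9, 10.8 and 8.32 FPKM in WT and 10.9, 18.4, 27.5 and 10.8 FPKM in MG53-TG samples 1 to 4. MG53-TG samples 1 and 4 lay at the top of the WT range and samples 2 and 3 above it. The means were 9.71 ± 1.30 and 16.9 ± 7.89 FPKM (SD, n = 4 each). The log2 fold change was 0.65 ± 0.28 (SE) with a 95% interval of 0.02 to 1.27 and an adjusted p of 0.0840 (limma), which did not pass the threshold. Soat2 did pass with median-of-ratios scaling (0.82, adjusted p = 0.0440, limma) and quantile normalization (0.80, adjusted p = 0.0404, limma). It also passed with a block for the replicate number (adjusted p = 0.0398, limma). The log2 fold change fell to 0.39 without MG53-TG sample 3. It passed without MG53-TG sample 1, at 0.81 with an adjusted p of 0.0448, and without sample 4, at 0.81 with an adjusted p of 0.0460 (limma).

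The MG53-TG samples with the most Soat2 also carried unspliced forms. Events that retain introns between 102158843 and 102161052 were listed in MG53-TG samples 2 and 3, at 2.59 and 3.84 FPKM for the intron of 366 bases, and in no other sample. Soat1, the widely expressed paralog, named after its value was seen, was at 16.4 ± 3.35 FPKM in WT and 11.4 ± 3.95 FPKM in MG53-TG samples (SD, n = 4 each), with a log2 fold change of -0.53 and an adjusted p of 0.144 by limma. The ratio of Soat2 to Soat1 was 0.462 to 0.912 in WT and 0.799 to 1.93 in MG53-TG samples, and was not tested.

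Pltp (chromosome 2, 164839518 to 164857711, minus strand), the phospholipid transfer protein of plasma lipoproteins, was barely listed. It had no start event in any WT sample or in MG53-TG samples 1 and 2, and summed to 0.139 and 0.123 FPKM in MG53-TG samples 3 and 4. A further start event upstream of these (164859753 to 164859830), which matches no annotated start of Pltp and was not counted, was listed at 0.597 FPKM in MG53-TG sample 4 alone. A spliced-intron event was listed at 0.539 FPKM in WT sample 4, 0.139 FPKM in MG53-TG sample 3 and 0.720 FPKM in MG53-TG sample 4. No fold is given against a group listed at 0, and the limma adjusted p in the fit without the filter was 0.235.

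The order of the mean levels per length changed with the genotype. In WT samples Scarb1 was highest at 25.4 FPKM, followed by Npc1l1 at 16.0, Abcg5 at 14.4, Abcg8 at 11.3, Soat2 at 9.71 and Abca1 at 0.581 FPKM. Neighbours from Npc1l1 to Soat2 overlapped between samples, whereas Scarb1 was apart from Npc1l1 and Soat2 from Abca1. In MG53-TG samples Abcg5 was highest at 91.0 FPKM, followed by Npc1l1 at 81.9, Abcg8 at 59.2, Scarb1 at 45.5, Soat2 at 16.9 and Abca1 at 1.04 FPKM. Npc1l1 overlapped with both Abcg5 and Abcg8, and the other neighbours were apart. The range of Npc1l1 also covered that of Scarb1, and in MG53-TG sample 2 Scarb1 at 44.7 FPKM was above Npc1l1 at 38.7 FPKM. The ratio of Npc1l1 to Scarb1 was 0.562 to 0.667 in WT and 0.865 to 2.68 in MG53-TG samples.

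**Figure D3:**
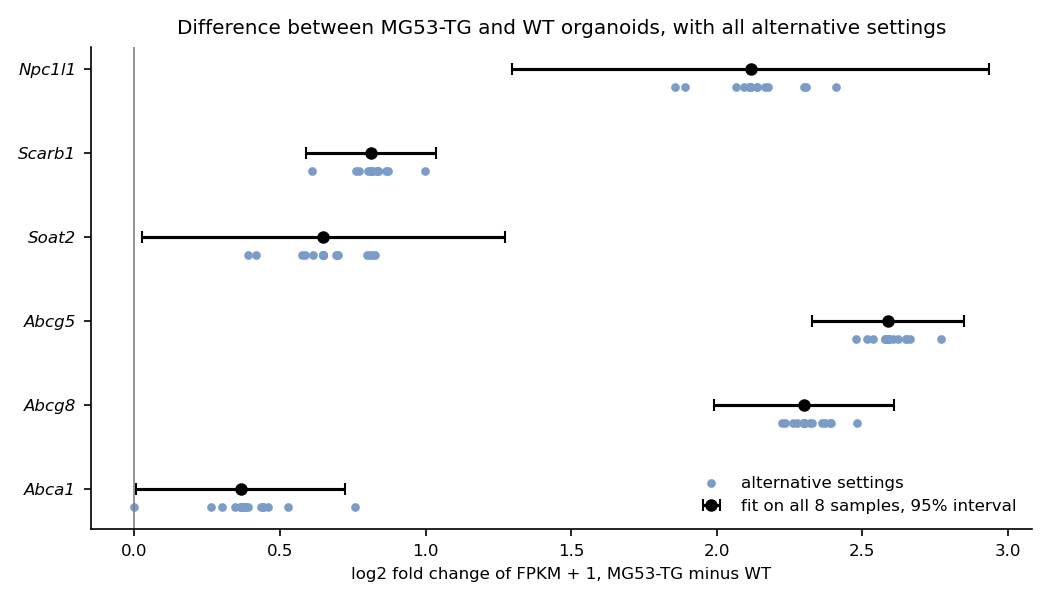
Log2 fold change of FPKM + 1, MG53-TG minus WT (horizontal axis), for the 6 members tested, with the 95% interval of the limma fit (black) and the value under each alternative way of processing, including leaving out single samples (blue). Npc1l1, Scarb1, Abcg5 and Abcg8 stayed above 0.6 in all of them, and Abca1 reached -0.0027 with start events alone.

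Members and marker genes of cell types moved in the same samples. All 12 enterocyte markers, among them Fabp1, Apoa4, Sis and Fabp2, rose. The log2 fold changes ran from 1.10 for Vil1, named after its value was seen, to 4.51 for Fabp1. The summed level of the 12 was 670 to 786 FPKM in WT and 8820, 8350, 10800 and 10700 FPKM in MG53-TG samples 1 to 4. Fabp1 made up most of the sum in MG53-TG, at 213 to 301 FPKM in WT and 5900, 5290, 6100 and 5970 FPKM in these MG53-TG samples. Sis was at 561, 631, 1030 and 1110 FPKM in these samples, and Fabp2 at 591, 614, 1220 and 1170 FPKM, higher in samples 3 and 4. Slc5a1, an enterocyte marker named after its value was seen, was more even, at 444, 458, 452 and 478 FPKM. Stem cell markers summed to 500 to 690 FPKM in WT, to 294 and 308 FPKM in MG53-TG samples 1 and 2, and to 90.3 and 55.6 FPKM in samples 3 and 4, where Npc1l1 was highest. Of the 8 stem cell markers 6 fell, among them Olfm4, Axin2, Ascl2 and Rgmb. The other 2, Lgr5 and Smoc2, named after their values were seen, overlapped between the groups (adjusted p = 0.53 and 0.0916, limma). Lgr5 was at 8.87, 6.34, 5.73 and 21.7 FPKM in WT and 11.4, 14.6, 2.47 and 3.67 FPKM in MG53-TG samples 1 to 4. Of the 6 Paneth cell markers tested 5 fell, among them Defa24, Defa17 and Mmp7, while Pnliprp2 rose, and of the 6 goblet cell markers 4 fell (Agr2, Muc2, Spink4 and Tff3). The goblet marker Zg16, named after its value was seen, lay the other way, at 5.25 to 11.2 FPKM in WT, while MG53-TG samples 1 to 4 held 7.57, 11.8, 53.0 and 62.2 FPKM. It did not pass the threshold (log2 fold change 1.33, adjusted p = 0.117, limma). The Paneth sum was 1230 to 1650 FPKM in WT and 371 to 559 FPKM in MG53-TG. The goblet sum was 684 to 776 FPKM in WT, and 183, 256, 424 and 505 FPKM in MG53-TG samples 1 to 4. Of the 6 enteroendocrine markers tested 4 rose (Chga, Chgb, Gip and Tph1), the sum being 216 to 236 and 344 to 490 FPKM. The same directions held with median-of-ratios scaling and quantile normalization, apart from 1 Paneth call lost with the former. The part of these shifts in cell markers in the results for the members was not tested.

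Cells from outside the epithelium were hardly seen. The 4 endothelial markers (Pecam1, Cdh5, Kdr and Tek) had no entry. Of the 7 macrophage and other immune markers, Adgre1, Csf1r, Cd14, Itgam and C1qa had no entry and Ptprc, named after its value was seen, was at 0.000508 FPKM or less, while Cd68 fell, so that the sum was 3.75 to 9.08 FPKM in WT and 0.469 to 1.28 FPKM in MG53-TG. Of the 7 mesenchymal markers, Pdgfra, Lum and Acta2 had no entry. The collagens Col1a2 and Col3a1 were listed at 0.739 to 2.07 FPKM in MG53-TG samples 2 to 4 only. Both passed the threshold as higher in MG53-TG (adjusted p = 0.00355 and 0.000596, limma, MG53-TG sample 1 missing). Under the filter, and named after their values were seen, Col1a1 was at 0.465 to 0.659 FPKM in MG53-TG samples 2 to 4 only and Dcn at 0.48 FPKM in MG53-TG sample 2 only. Within the epithelium, tuft cell markers were low too: of 5, Dclk1 and Il25 had no entry and the other 3 summed to at most 1.73 FPKM in any sample.

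**Figure D4:**
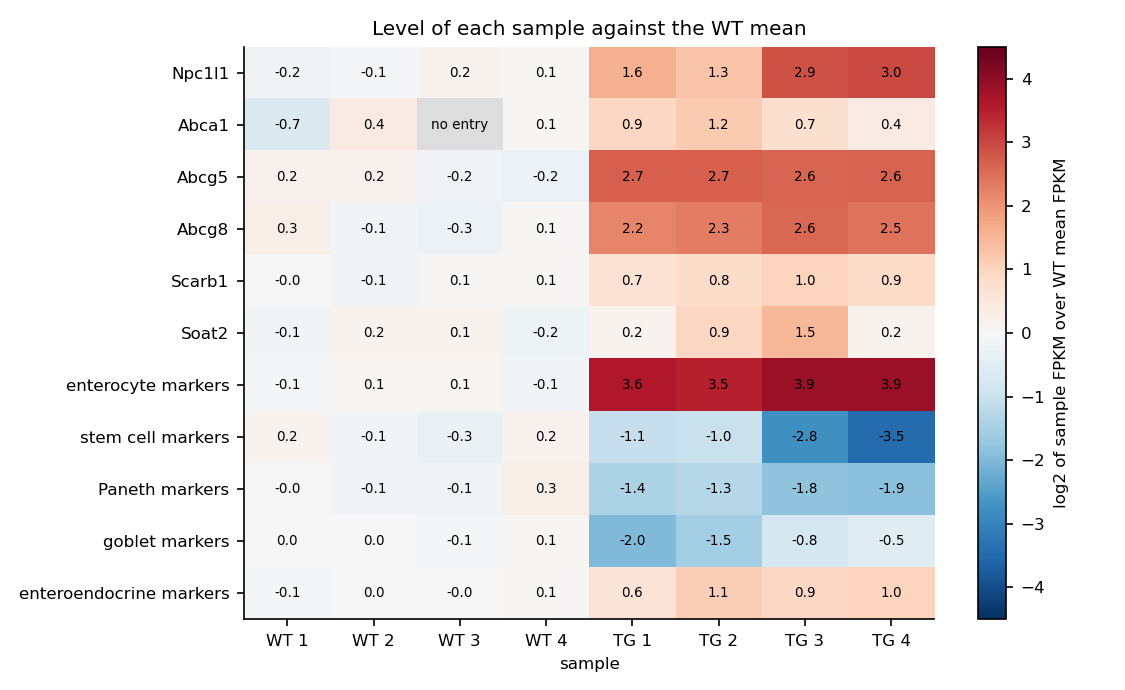
Log2 of each sample's FPKM over the WT mean for 6 members and for the summed markers of 5 epithelial cell types (rows) in the 8 samples (columns; TG is MG53-TG), with blue below and red above the WT mean. Npc1l1 is highest in TG 3 and TG 4, where the stem cell sum is lowest at 90.3 and 55.6 FPKM, whereas Abcg5 and Abcg8 are high in all 4.

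Genes that work on cholesterol before and after the members moved in both directions. The counts in each list are to be set beside the 15.5% higher and 29.2% lower among all genes tested, and the list medians beside -0.17. The group that packs and accepts absorbed lipid rose. Of 7 genes tested for sterol acceptors and lipoprotein assembly 6 were higher in MG53-TG and 0 lower, with a median log2 fold change of 1.95. Apoc3, an inhibitor of lipoprotein lipase, rose from 7.51 ± 1.07 to 317 ± 174 FPKM (SD, n = 4 each) and Apoa4 from 39.4 ± 2.95 to 838 ± 239 FPKM. Apoa1, which takes up the cholesterol that ABCA1 exports, was at 36.4 ± 3.86 FPKM in WT and 507 ± 217 FPKM in MG53-TG samples (SD, n = 4 each; log2 fold change 3.69, limma adjusted p = 1.04e-05). Mttp, which loads lipid onto apolipoprotein B, rose from 83.7 ± 5.01 to 332 ± 68.3 FPKM. Lcat had no entry. The counts were the same under both other scalings.

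The SREBP-2 axis, which raises cholesterol synthesis and LDL uptake when sterols are scarce, moved the other way. Of 17 genes 12 were lower and 1 was higher, with a median log2 fold change of -0.79. Idi1, an isomerase of the isoprenoid pathway, fell from 152 ± 5.90 to 53.6 ± 3.08 FPKM (SD, n = 4 each). Sqle, squalene epoxidase, fell by 1.13 on the log2 scale (limma adjusted p = 1.14e-05). The gene that rose was Insig2, a retention factor for the SREBP complex (0.60, limma adjusted p = 0.00567), named after its value was seen. With median-of-ratios scaling 10 genes were lower, and with quantile normalization 13, and 1 was higher in each.

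Of 12 genes tested for proteins known to act with the importers, 5 were higher and 2 lower, with a median log2 fold change of 0.19. With median-of-ratios scaling 6 were higher and 2 lower, with a median of 0.38, and with quantile normalization the median was 0.21. Pdzk1, the adaptor that binds the end of SR-BI encoded by the exon printed above, was at 0 to 0.281 FPKM in WT, while MG53-TG samples 1 to 4 held 4.65, 3.51, 9.60 and 8.81 FPKM. Its log2 fold change was 2.58 ± 0.28 (SE, limma adjusted p = 0.000149), above that of Scarb1 itself at 0.81. Numb, an endocytic adaptor of NPC1L1, rose by 0.80, and Myo5b, a motor that returns it to the apical membrane, by 0.61, whereas Flot2, a lipid raft protein, fell by 0.98 on the log2 scale.

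Of 14 genes tested for intracellular sterol movement, 4 were higher and 3 lower, with a median of -0.03. With median-of-ratios scaling 6 were higher and 3 lower, and with quantile normalization 6 and 4, and the median was 0.14 with each. Stard5 had no value under its own identifier. Lipa, the lysosomal lipase that frees cholesterol from its esters, rose from 3.84 ± 0.753 to 16.6 ± 2.92 FPKM (SD, n = 4 each), Gramd1b, a carrier of sterol from the plasma membrane, by 1.55 and Osbpl9 by 1.29 on the log2 scale. Npc1, the lysosomal relative of Npc1l1, fell from 4.92 ± 0.722 to 2.33 ± 0.348 FPKM (log2 fold change -0.83, limma adjusted p = 0.00144), so that this pair of paralogs moved in opposite directions. Of the 9 nearest paralogs tested, 3 were higher, Dgat1 (1.92), Cd36 (1.87, with no entry in MG53-TG sample 1, which was missing from its fit) and Abcg2 (1.38), and Npc1 alone was lower, with a median of 0.29. Abcg1 and Abcg4 had no entry.

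Of 9 LXR receptors, partners and targets tested, 3 were higher and 2 lower, with a median log2 fold change of -0.26. Nr1h2, which encodes LXR beta, rose from 3.84 ± 1.16 to 10.8 ± 5.73 FPKM, its partner Rxra from 11.1 ± 1.01 to 21.6 ± 3.21 FPKM and Lpcat3, a lysophospholipid acyltransferase, by 0.47 on the log2 scale. The lower calls were lost under both other scalings. Nr1h3, which encodes LXR alpha, had no value under its own identifier. When events were placed by exon boundaries alone, an alternative added after seeing the data, it was at 1.44 FPKM in WT and 4.5 FPKM in MG53-TG on average (log2 fold change 1.17, limma adjusted p = 0.000365). Stard5, a sterol carrier, was then at 16.8 and 24.2 FPKM (0.48, adjusted p = 0.0186, limma).

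Of 13 transcription factors reported to act on the members, 5 were higher and 3 lower, with a median of 0.16. The lower ones were Hnf4a, Srebf2 and Nr5a2, named after their values were seen. Hnf4a fell from 148 ± 7.88 to 109 ± 8.15 FPKM (SD, n = 4 each, limma adjusted p = 0.00307). Nr1h4, the bile acid receptor FXR, rose from 7.41 ± 0.306 to 28.8 ± 7.56 FPKM and Ppara, the fatty acid receptor, from 5.29 ± 1.26 to 14.4 ± 4.47 FPKM (SD, n = 4 each). Of the GATA factors whose motif is marked above, Gata6 rose by 0.68 (limma adjusted p = 0.000262) and Gata4 was at 35.1 FPKM in WT and 39.3 FPKM in MG53-TG on average (adjusted p = 0.233, limma), both named after their values were seen. With median-of-ratios scaling 7 factors were higher, Gata4 among them, and 2 lower. The call of Nr5a2 was lost under both other scalings.

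**Figure D5:**
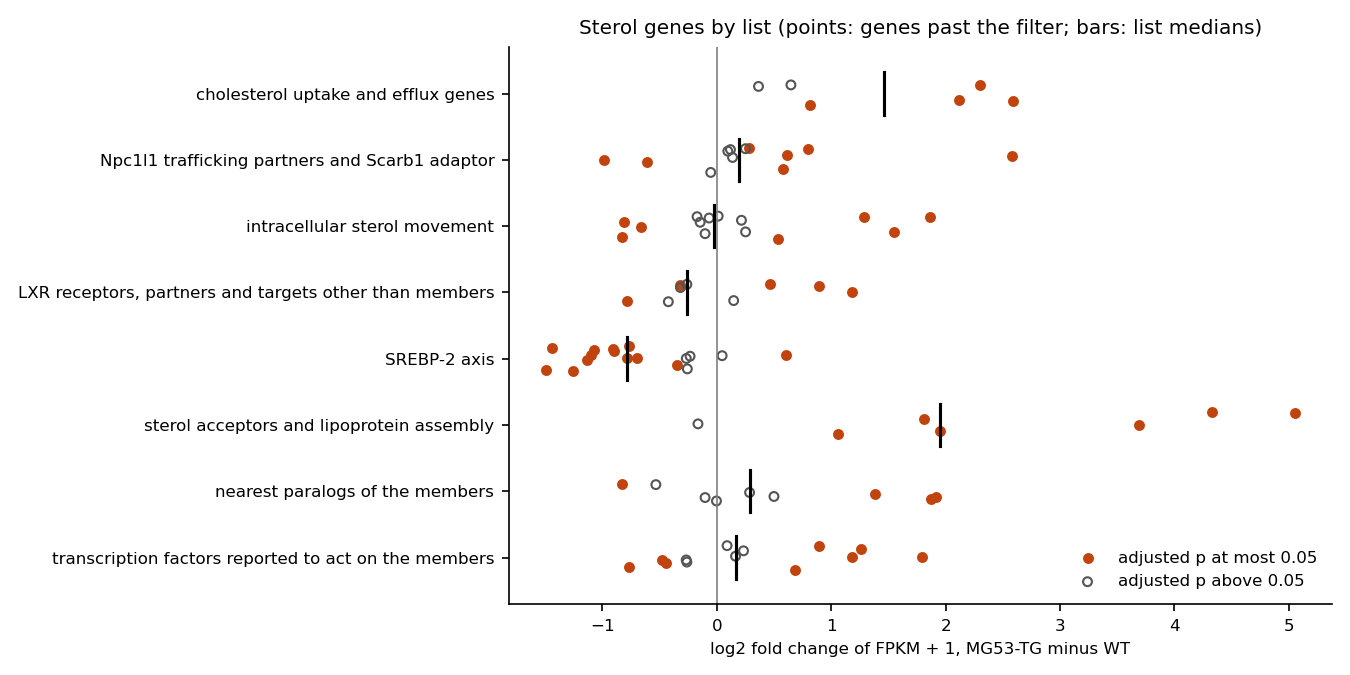
Log2 fold change of FPKM + 1, MG53-TG minus WT (horizontal axis), for each gene past the filter in the members and in 7 lists of sterol genes (rows), filled where the limma adjusted p was at most 0.05, with bars at the medians. The lipoprotein assembly genes lie to the right, with a median of 1.95, and the SREBP-2 axis to the left, with a median of -0.79.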

How the data were processed

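RNA sequencing of crypt organoids was analysed for 4 WT and 4 MG53-TG samples, grouped by their labels. Reads were trimmed with cutadapt 1.9.1 and mapped with HISAT2 2.0.1 to mm10 per the submitters' processing notes, which also name HTSeq 0.6.1. The authors deposited FPKM values per transcript event (start, end, skipped exon, retained intron) and sample. The tool that made the event tables is not given in the sources used here. Whole reads could not be recovered (smallest value 1e-06), so count-based tests were not run, the depth is unknown and no counting interval was computed.

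Start and end events were kept for the gene named for them if the exon boundary matched GENCODE M21 (85.3% did). A gene's FPKM was the sum of its start events, or of its end events where that mean was higher. A gene without entry in a sample was set to missing where the median of the group's other samples reached 0.5 FPKM, and to 0 elsewhere. Genes whose mean reached 0.5 FPKM were compared as log2(FPKM + 1) by limma 3.58.1 under R 4.3.3 (eBayes, trend), and an adjusted p (Benjamini-Hochberg) of at most 0.05 counted as passing. On that scale the changes of low genes come out too small. Single genes were also compared by an exact two-sided permutation test over 70 relabellings. The fit was tested on simulated data. Events, ratios and motif matches are descriptions without a test.

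The members and lists were chosen with earlier results of these data known. Genes named from a list were the 4 with the largest absolute log2 fold change past the threshold, and others are marked as named after their values were seen, or are list genes without entry. The values of some genes that this rule names are not reported here. Python 3.11.15 with pandas 2.3.3, numpy 2.4.6 and scipy 1.17.1 served for all other steps. The alternatives were another pseudocount (0.1), no filter or a stricter one (mean 2 FPKM), scaling by median of ratios, quantile normalization, a block for the replicate number, other ways to choose events, absent genes set to 0, and leaving out each sample in turn.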

Additional observations from a re-analysis of the deposited data

How the results depend on the processing

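The calls for Npc1l1, Abcg5, Abcg8 and Scarb1 stayed past the threshold under all 12 alternatives and without any single sample. Leaving out each sample in turn gave log2 fold changes of 1.86 to 2.41 for Npc1l1, 2.51 to 2.65 for Abcg5, 2.23 to 2.39 for Abcg8, 0.76 to 0.87 for Scarb1, 0.39 to 0.81 for Soat2, 0.26 to 0.44 for Abca1 and 0.06 to 0.12 for Pltp, and 3645 to 4857 genes past the threshold. Abca1 passed with median-of-ratios scaling (0.44, limma adjusted p = 0.0386) and quantile normalization (0.46, adjusted p = 0.0323), and was -0.0027 with start events only (adjusted p = 0.994). Soat2 passed with median-of-ratios scaling (0.82, adjusted p = 0.0440) and quantile normalization (0.80, adjusted p = 0.0404), and was 0.42 with start events only (adjusted p = 0.239). With a pseudocount of 0.1 the log2 fold change of Abca1 was 0.76 and that of Pltp 0.60, against 0.37 and 0.09 with 1, and without the coordinate check Pltp was at 0.24. None of these passed. Over the alternatives the adjusted p of Abca1 was 0.0323 to 0.994 and that of Soat2 0.0398 to 0.239. Same-numbered samples did not deviate together (correlations of -0.0505 to 0.0939), so the numbers were not read as pairs. With the replicate number as a block Soat2 was at 0.65 (adjusted p = 0.0398), and 4195 genes passed against 4595 without it. This block changed no other member's call. Pltp had no end event, and Pltp and Abca1 were under the filter of 2 FPKM, so those alternatives gave no value for them. The cause of these shifts was not tested. Depth is unknown, which limits what can be said of Abca1 and Pltp.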

Other observations

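The genes whose log2(FPKM + 1) was most like that of each member over the 8 samples are given as a description, since a difference between the groups alone makes many genes alike. Among 8638 genes whose mean reached 2 FPKM, the 3 with the highest Pearson correlation were Rfk, Gdpd2 and Proz for Npc1l1, with Rfk at 0.997. For Abcg5 they were Fbp2, Pklr and Lad1, with Fbp2 at 0.998, and for Abcg8 Gramd3, Gdf9 and Cyp4b1, with Gramd3 at 0.997. For Scarb1 they were Sectm1b, Itgb5 and Snx20, with Sectm1b at 0.998. For Soat2, which was high in MG53-TG samples 2 and 3, they were Sp3os at 0.974, Pcyt1a at 0.925 and Apeh at 0.922. For Abca1 they were Gcdh, Fam13a and Nhlrc3 over the 7 samples with an end event, with Gcdh at 0.980. For Pltp, at 0 in 6 of the samples, they were Dpp4, Slc30a10 and Plekha8, with Dpp4 at 0.986. None of these lists overlapped with another.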
